A study of Homo sapiens with 3 samples.

Results

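The vault genes were examined in DLD1, an established human cell line of colorectal cancer, with and without BEX2. They comprise the 3 vault proteins, MVP, TEP1 and PARP4, and the 4 vault RNAs, VTRNA1-1, VTRNA1-2, VTRNA1-3 and VTRNA2-1. All 7 were matched by Ensembl identifier among the 60504 genes of the deposited table. MVP had been chosen by its own FPKM ratios, which were at least 2-fold higher than control in both BEX2-/- clones, and the other 6 genes were added for their known place in the vault. The values of all 7 against the control are therefore a description, and no p-value is given for them.

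RNA-Seq was performed on DLD1 control cells, which carry wild-type BEX2 (1 library), and on BEX2-/- DLD1 cells made by CRISPR/Cas9 with a short deletion where translation of BEX2 begins (2 libraries, DLD1 KO1 and DLD1 KO2, here clone 1 and clone 2). The knockout libraries are taken here as 2 clones, which their titles do not state. The paper describes 1 deletion and does not say whether both libraries carry it. The control had no replicate, so an effect of cloning cannot be told apart from an effect of the knockout. The labels give all 3 libraries the same run date and lane. Levels are given in FPKM, the fragments of a gene scaled to the length of its exons and to the fragments of the library. The smallest FPKM values were multiples of a single read, which gave depths of 47458851 reads for the control, 35593989 for clone 1 and 47722374 for clone 2. BEX2 mRNA was listed at 0 in all 3 libraries and so could not check the genotype labels. The epithelial markers EPCAM, KRT8 and KRT18 were between 220 and 611 FPKM in every library. Other epithelial markers differed between the clones, with KRT20 at 18.9 FPKM in the control, 117 in clone 1 and 0.931 in clone 2. In the same order of libraries, VIL1 was at 3.61, 13.2 and 0.221 FPKM and CDX2 at 33.3, 43.2 and 24.0. CDX1 was low throughout, at 0.455, 0.815 and 0.0834 FPKM, and CDH1 was at 42.6, 53.9 and 50.5. The part of these differences in the vault genes was not tested. The summed FPKM of 6 fibroblast markers was 0.129 to 0.634, that of 6 leukocyte markers 0.819 to 1.15 and that of 4 endothelial markers 0.0649 to 0.0784. The leukocyte marker PTPRC and the fibroblast marker COL3A1 were listed at 0 throughout.

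Vaults are large barrel-shaped ribonucleoprotein particles of the cytoplasm. Many copies of the major vault protein, MVP, form the shell, while TEP1, PARP4 and short vault RNAs lie with or inside it. MVP is also called lung resistance-related protein, because it was found in tumor cells that had become resistant to drugs. Vault RNAs are made by RNA polymerase III, which reads promoter elements (the A box and the B box) that lie inside the transcript. TEP1 binds vault RNA and was first described as a protein bound to telomerase, and PARP4 is a poly(ADP-ribose) polymerase that can modify MVP.

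The 4 vault RNAs are shown because their length and their likeness to each other set how well they could be measured. The sequences are those of GENCODE release 29 on GRCh38, written 5′ to 3′ in DNA letters. The capitals mark the first core, TTAGCTCA, within the A box, and the second core, GTTCGANNC, within the B box.
VTRNA1-1: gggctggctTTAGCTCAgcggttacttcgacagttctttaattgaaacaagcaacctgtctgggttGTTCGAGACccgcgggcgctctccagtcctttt
VTRNA1-2: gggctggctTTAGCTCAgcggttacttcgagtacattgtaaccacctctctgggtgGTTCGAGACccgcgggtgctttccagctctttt
VTRNA1-3: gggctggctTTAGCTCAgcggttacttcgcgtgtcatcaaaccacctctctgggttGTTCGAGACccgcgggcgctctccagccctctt
VTRNA2-1: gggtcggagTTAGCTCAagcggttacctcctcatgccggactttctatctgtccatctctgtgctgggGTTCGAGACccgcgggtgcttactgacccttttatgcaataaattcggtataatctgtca

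VTRNA1-1 (99 nt) lies at chr5:140711275-140711373, VTRNA1-2 (89 nt) at chr5:140718925-140719013 and VTRNA1-3 (89 nt) at chr5:140726158-140726246, all on the plus strand. VTRNA2-1 (128 nt) lies apart from them at chr5:136080470-136080597 on the minus strand. Each is annotated as a gene of a single transcript. The first core began at base 10 of all 4 RNAs, and the second at base 67 of VTRNA1-1, base 57 of VTRNA1-2 and VTRNA1-3 and base 69 of VTRNA2-1. Neither core was found on their opposite strand. Among 4844 annotated transcripts of 80 to 130 nt, the first core was present on the transcript strand in 0.351% and the second in 0.227%, and on the opposite strand in 0.186% and 0.0619%. Both cores occurred together in 5 of these transcripts, 4 of which are the RNAs printed here. The letters of the cores were chosen after the sequences were seen, and the cores do not overlap each other.

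The 3 RNAs of the VTRNA1 group were close copies at their ends. VTRNA1-2 and VTRNA1-3 were identical over 86.5% of their alignment, VTRNA1-1 and VTRNA1-3 over 82.8%, and VTRNA1-1 and VTRNA1-2 over 81.8%. The first 29 bases are the same in all 3, and VTRNA1-1 and VTRNA1-2 share 30. VTRNA2-1 was identical to the others over 55.7% to 57.8%, with shared runs of at most 22 bases. A read confined to a shared run could not be assigned to 1 of these genes, and the length of the reads is not given in the sources used here.

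Of the vault RNAs, reads were counted for VTRNA1-2 alone, and they were few. VTRNA1-2 was at 1.18 FPKM in DLD1 control cells, was listed at 0 in clone 1 and was at 1.65 FPKM in clone 2. The reads behind them numbered 5, 0 and 7, since 1 read of a gene this short is worth 0.237, 0.316 and 0.235 FPKM. The clones thus lay on opposite sides of the control, with the deeper 2 libraries holding all of the reads. Exact Poisson 95% intervals, which cover counting error only, ran from 0.384 to 2.76 FPKM in DLD1 control cells, from 0 to 1.16 FPKM in clone 1 and from 0.663 to 3.40 FPKM in clone 2, and they overlapped. At the level of the control, 3.75 reads would have been counted at the depth of clone 1. The ratio of clone 2 to the control was 1.39, with a counting interval of 0.380 to 5.56. That interval includes equality. No such ratio with a counting interval was computed for clone 1, where the count was 0. Overlap of the intervals therefore does not show that clone 1 equals the control or clone 2.

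VTRNA1-1, VTRNA1-3 and VTRNA2-1 were listed at 0 in all 3 libraries. For VTRNA2-1 the annotation holds a second identifier, RF00006 (ENSG00000278815), that covers 101 nt of the same strand, and it was listed at 0 as well. The vault RNA pseudogenes VTRNA2-2P and VTRNA3-1P were also listed at 0. Such values were the rule for short genes, as 86.4% of the 4214 genes with 80 to 130 nt of exons were listed at 0 throughout. At least 5 reads in the control, the number of VTRNA1-2, were reached by 107 of them. RMRP, RPPH1 and RN7SL1, RNA polymerase III transcripts that all cells need, were listed at 0 in every library too. The TruSeq RNA kit selects polyadenylated RNA, which transcripts of this kind are not, and its part in these zeros was not tested. The zeros of the vault RNAs are therefore given as listed values and not as a measured absence.

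MVP, the shell protein and the only vault gene chosen by its ratios, had the largest mean difference between the clones and the control. MVP (ENSG00000013364) lies on the plus strand at chr16:29820394-29848039 and has 19 annotated transcripts. Its level was 9.30 FPKM in the control, 19.6 in clone 1 and 28.1 in clone 2, which correspond to 2710, 4292 and 8230 reads. Both clones were above the control, and clone 2 was above clone 1. The level was 2.11-fold higher in clone 1 (counting interval 2.01 to 2.22) and 3.02-fold higher in clone 2 (2.89 to 3.16), and clone 2 was 1.43-fold above clone 1 (1.38 to 1.48). A level at least 2-fold higher in clone 2 than in clone 1, on the scale of FPKM + 1 used below, was seen for 2.51% of genes, not including MVP. These intervals compare libraries, not conditions. The mean of the clones was 23.9 ± 5.97 FPKM (SD, n = 2), and its distance from the control was larger than the gap between the clones. The choice of MVP by its ratios to this same control favours such a distance, which is therefore only a description. In bulk samples such as these, more cells that express a gene and more RNA per cell cannot be told apart.

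For the comparison with other genes, log2 ratios were taken of FPKM + 1, which understates the change of low genes. The control value and the average of the clones had to have a mean of at least 1 FPKM, which left 11675 genes. It was called when it was at least 2-fold higher, or at least 2-fold lower, in both clones. On this scale the ratio of MVP was 1.00 in clone 1 and 1.5 in clone 2. MVP was called higher, as were 0.12% of all genes past the filter (14 genes), and it was the gene of the 14 with the smallest of the lower ratios. Only 2 of 10050 protein-coding genes (0.0199%) were called higher on this scale, MVP and SLC44A4. The share in a single clone was 1.06% for clone 1 and 1.33% for clone 2. With 0.1 FPKM added instead of 1, 40 genes of all types were called higher, so the number called depends on what is added. Just outside the threshold lay TP53INP2, with ratios of 1.44 and 0.94. In FPKM itself, at 1.77 in the control, 6.52 in clone 1 and 4.30 in clone 2, TP53INP2 was more than 2-fold higher in both clones. MVP was just inside the threshold. After scaling the libraries by their median ratio, the value of MVP in clone 1 was 0.95 and MVP was no longer called. Both ratios share the control library, so a low value there would raise both.

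**Figure D1:**
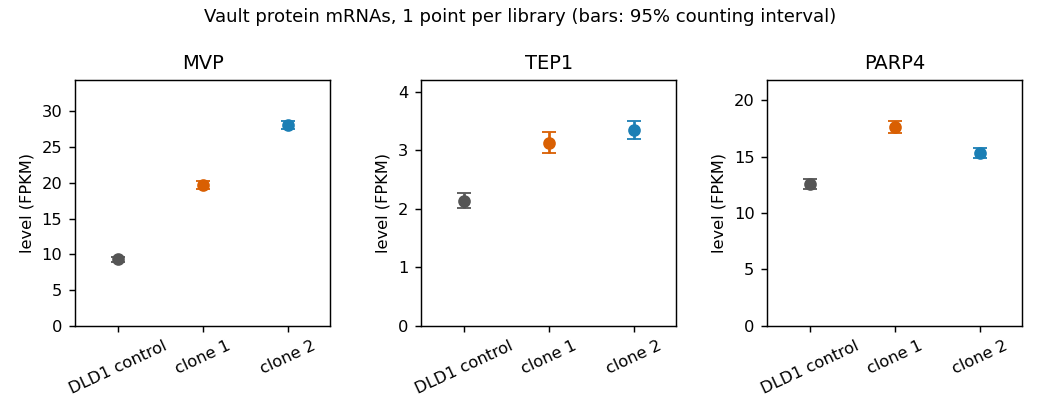
Level of each vault protein mRNA in FPKM (vertical axes, each from 0) in DLD1 control cells, clone 1 and clone 2, with 1 point per library and bars for the exact Poisson 95% interval of its reads. For all 3 genes both clones lie above the control, with MVP at 9.30, 19.6 and 28.1 FPKM.

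TEP1, which binds vault RNA and telomerase RNA, was also higher in both clones, by a smaller factor. TEP1 (ENSG00000129566) lies on the minus strand at chr14:20365667-20413429 and was the least abundant of the vault protein mRNAs. Its level was 2.14 FPKM in the control, 3.13 in clone 1 and 3.35 in clone 2 (1152, 1263 and 1810 reads). The clones lay close together and both above the control. The level was 1.46-fold the control in clone 1 (counting interval 1.35 to 1.58) and 1.56-fold in clone 2 (1.45 to 1.68). Between the clones the ratio was 1.07, with an interval of 0.994 to 1.15 that includes equality. The mean of the clones was 3.24 ± 0.153 FPKM (SD, n = 2).

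PARP4, the polymerase of the vault, was higher in both clones as well, with the clones in the reverse order. PARP4 (ENSG00000102699) lies on the minus strand at chr13:24420926-24512810. Its level was 12.5 FPKM in the control, 17.7 in clone 1 and 15.3 in clone 2 (3617, 3820 and 4439 reads). The level was 1.41-fold the control in clone 1 (counting interval 1.35 to 1.47) and 1.22-fold in clone 2 (1.17 to 1.28). Clone 2 was at 0.867 of clone 1 (0.830 to 0.905). The mean of the clones was 16.5 ± 1.66 FPKM (SD, n = 2). PARP4 has pseudogenes that could take or lend reads. PARP4P2 was at 1, 8 and 3 reads in control, clone 1 and clone 2, and PARP4P3 was listed at 0. These are the reads left after assignment, and how many were exchanged with PARP4 was not tested.

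Neither TEP1 nor PARP4 reached the 2-fold threshold in either clone. On the scale of FPKM + 1 the log2 ratios of TEP1 were 0.39 and 0.47 (mean 0.43 ± 0.05, SD, n = 2), and those of PARP4 were 0.46 and 0.27 (mean 0.37 ± 0.14, SD, n = 2). All 3 vault protein genes were higher in both clones, as were 33.5% of the protein-coding genes and 32.4% of all genes past the filter. The share of protein-coding genes whose smaller ratio was at least that of TEP1 was 1.34% (135 genes), and at least that of PARP4 it was 4.25% (427 genes). VTRNA1-2, the only vault RNA past the filter, had ratios of -1.13 and 0.28, on opposite sides of 0, and rests on at most 7 reads. No direction is read from these counts.

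**Figure D2:**
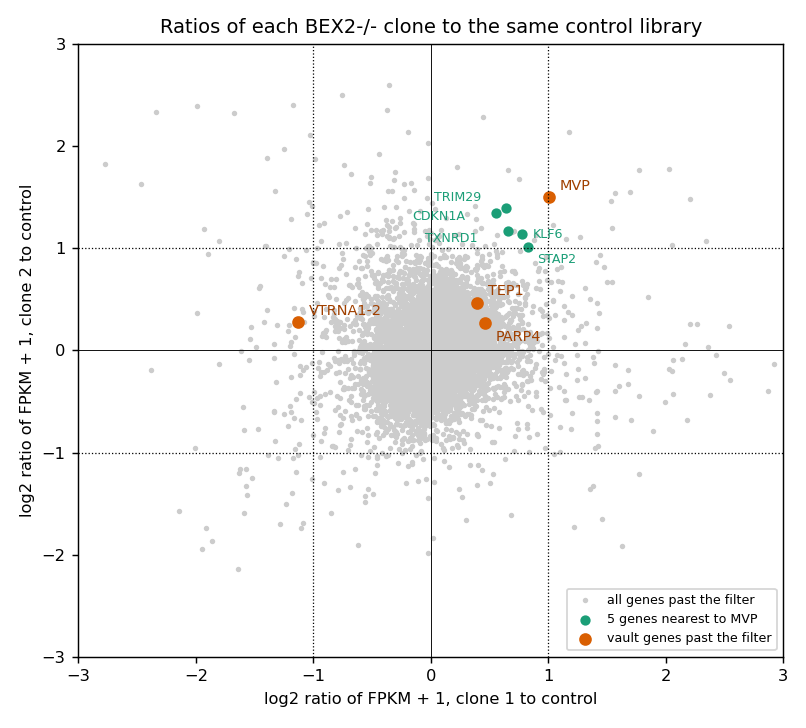
Log2 ratio of FPKM + 1 to the control in clone 1 (horizontal axis) and clone 2 (vertical axis) for genes past the filter (grey), the vault genes (orange) and the 5 genes nearest to MVP (green), with dotted lines at 2-fold and 15 genes outside the axes. MVP lies at 1.00 and 1.5, TEP1 and PARP4 within the upper right of the main cloud, and VTRNA1-2 at -1.13 and 0.28.

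The levels of the vault protein mRNAs relative to each other, in FPKM and so per length, differed between libraries. The ratio of MVP to PARP4 mRNA was 0.742 in the control, 1.11 in clone 1 and 1.84 in clone 2. The order of the pair was thus PARP4 above MVP in the control and MVP above PARP4 in both clones. Against TEP1, the level of MVP was 4.34 times as high in the control, 6.27 times in clone 1 and 8.39 times in clone 2. Because MVP was chosen for being higher in both clones, the rise of MVP over PARP4 and TEP1 follows in part from that choice. PARP4 stood at 5.85, 5.64 and 4.57 times the level of TEP1. Among the 11675 genes, MVP was at percentile 65.8 of abundance in the control, 82.8 in clone 1 and 89.0 in clone 2. TEP1 was at percentiles 21.4, 30.4 and 33.5, and PARP4 at 73.3, 80.6 and 78.2.

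The genes beside MVP on chromosome 16 were compared next, to see whether the difference extended along the chromosome. Of the 10 protein-coding genes past the filter on each side, 0 of 20 were called in either direction, which is also what the shares over all genes (0.12% called higher and 0.206% called lower) give for so few genes. Over these 20 genes, 3 were higher in both clones and 10 lower in both, where 32.4% and 27.7% of all genes were, and their median log2 ratio was -0.05 in clone 1 and -0.08 in clone 2, against 0.04 and -0.01 for all genes. PAGR1, the nearest of them upstream, encodes a subunit of a histone methyltransferase complex and was at 2.34 FPKM in the control, 1.68 in clone 1 and 1.39 in clone 2. CDIPT, the nearest downstream and the phosphatidylinositol synthase, was at 11.6, 11.6 and 11.5 FPKM. The neighbour with the largest smaller ratio was TAOK2, a protein kinase named after its values were seen, with ratios of 0.36 and 0.19. The kit does not keep strand, and AC009133.1 (ENSG00000238045), an antisense gene that overlaps the start of MVP without sharing exon bases, was at 1.87, 1.86 and 1.53 FPKM. A protein-coding gene model, AC120114.4 (ENSG00000281348), shares 154 exon bases with MVP and was listed at 0.

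**Figure D3:**
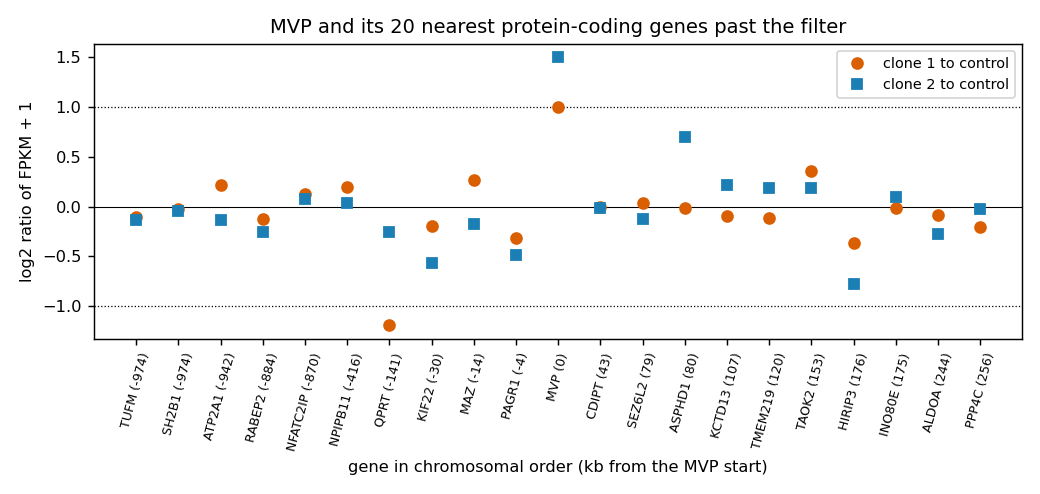
Log2 ratio of FPKM + 1 to the control in clone 1 (circles) and clone 2 (squares) for MVP and the 10 protein-coding genes past the filter on each side, in chromosomal order with the distance of each start from that of MVP in kb. MVP, which was chosen for lying above the dotted 2-fold line in both clones, stands beside 20 neighbours of which 0 were called (over all protein-coding genes, 0.0199% were called higher).

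Similar runs of genes around TEP1 and PARP4 were examined. Around TEP1, 13 protein-coding genes past the filter were found, because few lie between it and the chromosome end, and 0 were called. Their median ratio was -0.05 in clone 1 and -0.06 in clone 2, and 4 were higher in both clones. Around PARP4, 0 of 20 genes were called and 6 were higher in both clones, with medians of 0.06 and -0.09. These counts are near the shares over all genes, of which 0.12% were called higher and 32.4% were higher in both clones. The smaller ratio of TEP1 (0.39) was above the largest among its neighbours (0.08). That of PARP4 (0.27) was below that of its neighbour PABPC3, a poly(A)-binding protein named after its values were seen, with ratios of 0.40 and 0.42.

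The 5 protein-coding genes whose pair of ratios lay nearest to that of MVP were TRIM29, KLF6, CDKN1A, TXNRD1 and STAP2. The distance was Euclidean over the ratios of clone 1 and clone 2, and so rests on 3 libraries. TRIM29, a tripartite motif protein of epithelia, was nearest at 0.38, with 2.90 FPKM in the control, 5.09 in clone 1 and 9.25 in clone 2. KLF6, a zinc finger transcription factor, was at 8.11, 14.6 and 19.1 FPKM (distance 0.42). CDKN1A, which encodes the cell cycle inhibitor of the p53 response, was at 4.24, 6.68 and 12.3 FPKM (distance 0.48). TXNRD1, the cytosolic thioredoxin reductase, was at 35.3, 56.2 and 80.7 FPKM (distance 0.48). STAP2, a signal adaptor, was at 6.72, 12.7 and 14.6 FPKM (distance 0.52). In all 5 the levels stood in the order control, clone 1, clone 2, which follows from how they were picked. None of them was called, since each was under 2-fold in clone 1.

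Genes around the vault were then summarised in 6 lists. None of the genes of these lists was called in either direction, against 0.12% called higher and 0.206% called lower of all genes past the filter. In limma's moderated test of the clones against the control, 0 of the 11675 genes passed an adjusted p-value of 0.05 (0.0% in either direction). At an unadjusted p-value under 0.05, 72 genes were higher (0.617%) and 67 lower (0.574%). That fit takes its spread from the 2 clones and assumes that the lone control varies like them, so its count says little about how many genes differed. The median of the mean log2 ratio of the clones was 0.02 over all genes.

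The genes that bind, modify or process vault RNAs were spread around 0. Of 10 genes, 5 were higher and 5 lower in both clones, with a median of 0.07. SQSTM1, an autophagy receptor that vault RNA binds, had the highest mean, at 30.7 FPKM in the control, 32.3 in clone 1 and 45.4 in clone 2. SRSF2, a splicing factor, had the lowest, at 74.2, 72.6 and 53.4 FPKM. For RNA polymerase III and its factors, the machinery that makes vault RNA, 8 of 23 genes were higher and 9 lower in both clones, with a median of 0.02. Among them POLR3K, a small subunit, had the lowest mean, with 15.2 FPKM in the control, 11.1 in clone 1 and 11.0 in clone 2. POLR3A, the largest subunit, had the highest, with 4.73, 5.31 and 5.44 FPKM.

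Of the telomerase genes, 6 of 7 past the filter were lower in both clones and 0 higher in both, whereas 27.7% of all genes were lower in both. Their median was -0.22. TERT, the catalytic subunit, had the lowest mean, at 1.58 FPKM in the control, 0.864 in clone 1 and 0.458 in clone 2. NAF1, which helps assemble the telomerase ribonucleoprotein, had the highest, at 6.0, 5.89 and 6.50 FPKM. TEP1, which is not in this list, stood above the control in both clones where most of the listed genes stood below it. This difference was not tested.

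In the PARP family without PARP4, 8 of 14 genes past the filter were higher in both clones and 2 lower, with a median of 0.13 (over all genes, 32.4% were higher and 27.7% lower in both). TIPARP, a mono-ADP-ribosyltransferase, had the highest mean, at 6.32 FPKM in the control, 9.18 in clone 1 and 11.1 in clone 2. PARP16, an enzyme of the endoplasmic reticulum, had the lowest, at 3.35, 3.29 and 2.29 FPKM. The mean ratio of PARP4 (0.37) lay between the family median and that of TIPARP (0.60).

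The next list held genes of proteins described as MVP partners, or of factors of the interferon-gamma route to the MVP promoter. By mRNA, 8 of 12 were higher in both clones and 0 lower, against 32.4% and 27.7% of all genes. Their median was 0.22 and none was called. IFNGR1, a chain of the interferon-gamma receptor, had the highest mean, but it was at 28.8 FPKM in the control, 28.3 in clone 1 and 94.8 in clone 2, so the difference stood in clone 2 alone. Of the drug efflux transporters, 3 of 6 were higher in both clones and 0 lower, against the same shares over all genes, with a median of 0.28. ABCG2, the breast cancer resistance protein, was at 0.834 FPKM in the control, 7.22 in clone 1 and 0.912 in clone 2. ABCC1, the multidrug resistance protein once measured beside MVP, was at 9.81, 9.62 and 9.94 FPKM. ABCC3, an organic anion transporter of the same family, was named after its values were seen, at 5.28, 11.4 and 10.9 FPKM. Its log2 ratios of FPKM + 1 were 0.98 and 0.92, just under the 2-fold threshold. In FPKM itself, ABCC3 was more than 2-fold above the control in both clones.

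**Figure D4:**
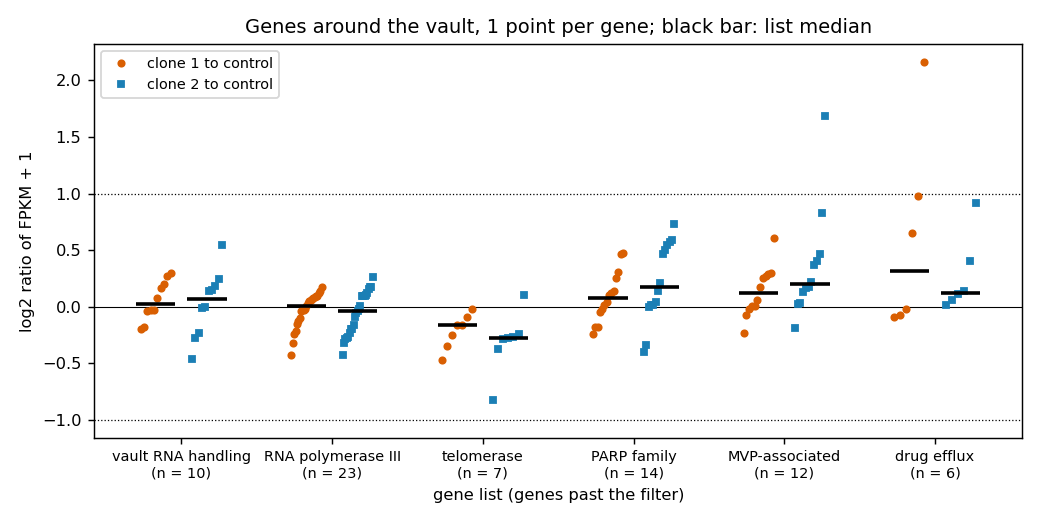
Log2 ratio of FPKM + 1 to the control in clone 1 (circles) and clone 2 (squares) for the genes past the filter of 6 lists, with 1 point per gene, black bars at the list medians and dotted lines at 2-fold. List medians lie between -0.27 and 0.31, and the points above 2-fold, ABCG2 in clone 1 and IFNGR1 in clone 2, are each in a single clone.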

How the data were processed

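RNA was taken with TRIzol, and TruSeq RNA libraries were sequenced on an Illumina HiSeq instrument. The authors deposited FPKM values per gene and library. The submitters' processing notes name Trim Galore 0.3.7, STAR 2.5, Cufflinks 2.2.1, DESeq 1.22.1 and hg19, and the annotation is not given in the sources used here. The table holds no coordinates. Those printed are the GRCh38 positions of GENCODE release 29, in which 56996 of 60504 identifiers were found. Reads were recovered as FPKM times merged exon length times the depth at which low values became whole (within 0.02), which 98.7% to 98.8% of low values did for genes with 1 transcript and 88.2% to 89.0% for others. For all vault genes they were whole. Intervals are exact 95% Poisson and, for ratios of libraries, exact binomial (Clopper-Pearson), and cover counting error only. The precision is that of 1 control library.

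Calls, filter and alternatives are defined in the text. The count tools were not run, since the values are FPKM. limma 3.58.1 (R 4.3.3) was fitted to log2(FPKM + 1) over all genes past the filter, with Benjamini-Hochberg adjustment, and is reported as counts over all genes and for the lists, with no value for a vault gene. Scripts ran in Python 3.11.15 with scipy 1.17.1 and Biopython 1.88, and were tested on simulated data. The members and lists were chosen with earlier results of these data known. Besides the vault genes, the text names list genes that were called or, where none was, the highest and lowest mean of each list, the genes beside MVP and the 5 genes nearest to it. Any other choice is marked. A gene that this rule picks is not reported here. The alternatives were another pseudocount, scaling or filter, a threshold of 1.5-fold and leaving out either clone.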

Additional observations from a re-analysis of the deposited data

How the results depend on the processing

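All alternatives run kept MVP, TEP1 and PARP4 higher than the control in the mean of the clones. The mean log2 ratio of MVP ran from 1.00 without clone 2 to 1.5 without clone 1. That of PARP4 ran from 0.27 to 0.46 on leaving out a clone, and that of TEP1 from 0.39 to 0.47. TEP1 reached 0.57 when 0.1 FPKM was the pseudocount, 0.60 after scaling to TPM and 0.60 without a pseudocount, the last chosen after seeing the data. FPKM summed to 260686 to 273924 per library, so values in TPM were larger. The pseudocount stayed at 1, so the TPM setting also lessened its weight. Scaling by the median ratio ended the call of MVP, as its ratio in clone 1 came to 0.95. The ratio of VTRNA1-2 was -0.42 in the mean, -1.13 in clone 1, 0.28 in clone 2 and 0.08 with values under 3 reads set to 3 reads, so it had no settled direction.

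The number of genes called higher was 40 with the smaller pseudocount, 131 with TPM scaling, 3 at a mean of at least 5 FPKM and 67 at 1.5-fold, and those called lower were 48, 156, 3 and 70. With TPM scaling the weight of the pseudocount changed too, and its part in those counts was not tested. On leaving out a clone the genes called ran from 124 to 155 higher and from 86 to 112 lower, since 1 clone then decides. Without the filter on low values limma passed 240 genes, where most residual variances were 0 and its prior is unreliable, and 0 under the other settings. With a single clone no residual is left, so limma was not run.

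TPM scaling moved the list medians to 0.14 (vault RNA handling), 0.085 (RNA polymerase III), 0.21 (PARP family) and 0.31 (MVP-associated), and that of the MVP neighbours to 0.11. A mean of at least 5 FPKM gave -0.061 for vault RNA handling, -0.049 for RNA polymerase III, 0.087 for drug efflux and 0.028 for the neighbours. The neighbours came to -0.044 with median-ratio scaling and 0.0096 without the filter. Before a pseudocount, TPM scaling raised the log2 ratio of every gene by 0.0612 in clone 1 and 0.0715 in clone 2, not only in these lists. The part of this in the new medians, and the cause of the other shifts, was not tested. On leaving out a clone the medians ran from 0.021 to 0.070 for vault RNA handling, from -0.035 to 0.0029 for RNA polymerase III, from 0.12 to 0.20 for MVP-associated genes, from 0.12 to 0.31 for drug efflux and from -0.084 to -0.052 for the neighbours. The telomerase median was negative under all 8 settings, from -0.27 to -0.16. No paired analysis was possible because there was only 1 control library.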
